A study of Rattus norvegicus with 10 samples.

Results

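Matrix metalloproteinases and the tissue inhibitors that bind them were followed in rat lens explants during the first day at a differentiation-inducing dose of FGF2. The members were taken by name, as every probe set to which the array annotation gives 1 of the symbols Mmp2, Mmp3, Mmp9, Mmp10, Mmp12, Mmp13, Mmp14, Timp1, Timp2 or Timp3 alone. This gave 17 probe sets for 10 genes, out of the 31042 probe sets tested and the 14217 genes that they name. Lens explants are pieces of lens capsule with the lens epithelial cells attached to it. They came from 3-day-old rat pups, and all of them were kept overnight at 5 ng/mL FGF2, which is the state at 0 hr, the reference. The other cultures then received 100 ng/mL recombinant FGF2 for 2, 4, 12, or 24 hr. Each of the 5 time points has 2 arrays from separate replicate experiments, and each array holds the amplified RNA of the pooled explants of an assay. Since no array holds explants that stayed at 5 ng/mL FGF2 for as long, the higher dose cannot be told apart from the added hours in culture.

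Matrix metalloproteinases are zinc-dependent enzymes that cut collagens, laminin, and other proteins of the extracellular matrix, and they also release growth factors and receptor fragments from the cell surface. Most are secreted as inactive proenzymes and are switched on when a prodomain is cut off, often by plasmin or by another metalloproteinase. The TIMPs are small secreted proteins that block the active site of these enzymes, and TIMP3 stays bound to the matrix. The lens capsule is a thick basement membrane made by the lens cells themselves, and metalloproteinases in the lens are best known from injury, migration, and epithelial-mesenchymal transition. Only transcripts were measured here, not the secreted enzymes or their activity.

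Values are intensities normalized by the robust multichip average (RMA), not logged, and the median of an array lay between 98.0 and 100.25. RMA gives no detection call, so a low value is not evidence that a transcript was absent, and the values of different probe sets are not compared as levels. Differences are log2 differences between time point means from limma over all 10 arrays. Up- or down-regulated is said of a probe set whose p, adjusted by Benjamini-Hochberg across all 31042, was under 0.05. The 6 lens epithelium markers on the arrays were Cryaa, Cryab, Pax6, Prox1, Foxe3, and Cdh1. Their summed signal lay between 65091 and 71989 on the 10 arrays. Most of it came from Cryaa (22515 to 25148) and Cryab (17687 to 21085), so the sum mostly follows these crystallin genes. The study lists alpha-crystallin expression among early features of fiber differentiation. Of the 6 markers, 1, 2, and 3 were down-regulated at 4, 12, and 24 hr. The log2 differences called at 24 hr were those of Foxe3 (−1.18), Cdh1 (−0.70), and Pax6 (−0.41). Prox1 was higher at 12 and 24 hr than at 2 and 4 hr, by 0.42. Replicate arrays of 2 hr and 4 hr differed more (SD of the log2 difference 0.29 and 0.30) than those of the other times (0.16 to 0.21). In the study's supplementary data the names of the arrays number the 2 and 4 hr arrays apart from the 0 hr arrays and from the 12 and 24 hr arrays. The 4 against 2 hr and the 24 against 12 hr differences alone compare arrays that are numbered together. Whether this numbering marks a hybridization or scan batch is not known, and in every other difference it cannot be told apart from the time. In these bulk samples, fewer cells of a type and less RNA per cell cannot be told apart either.

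Mmp13, which encodes collagenase 3, an enzyme that cuts fibrillar collagens, changed more than any other member. Its signal (1388204_at) was 23.9 and 38.2 on the 2 arrays at 0 hr. At 2 hr it was 424 and 1167, and at 4 hr it was 678 and 921. At 12 hr it was 131 and 130.4, and at 24 hr it was 69.4 and 131. Every array at 100 ng/mL FGF2 lay above both 0 hr arrays, and all 4 early arrays (2 and 4 hr) lay above all 4 late arrays (12 and 24 hr). The log2 difference from 0 hr was 4.54 at 2 hr, a 23.3-fold rise (standard error 0.46, adjusted p = 0.00055 from limma, n = 2 arrays at each time), and 4.71 at 4 hr, a 26.2-fold rise (adjusted p = 0.00024). At 12 hr it was 2.11 (adjusted p = 0.013) and at 24 hr 1.66 (adjusted p = 0.035). Between 2 and 4 hr the difference was 0.17, with a 95% confidence interval from −0.88 to 1.22, and between 12 and 24 hr it was −0.45, from −1.51 to 0.60. The late phase was lower than the early phase by 2.74 as a direct contrast, that is 6.68-fold lower (log2 difference −2.74, standard error 0.33, n = 4 arrays a phase, adjusted p = 0.00026). The rises at 2 and 4 hr and the late decline passed the test whichever array was left out. The call at 12 hr was lost without 0 hr replicate 1 or either 12 hr array (log2 difference 1.77 to 2.45, adjusted p up to 0.10), and the call at 24 hr without either 0 hr array, either 12 hr array, or 24 hr replicate 2 (1.20 to 2.12, adjusted p up to 0.23).

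**Figure D1:**
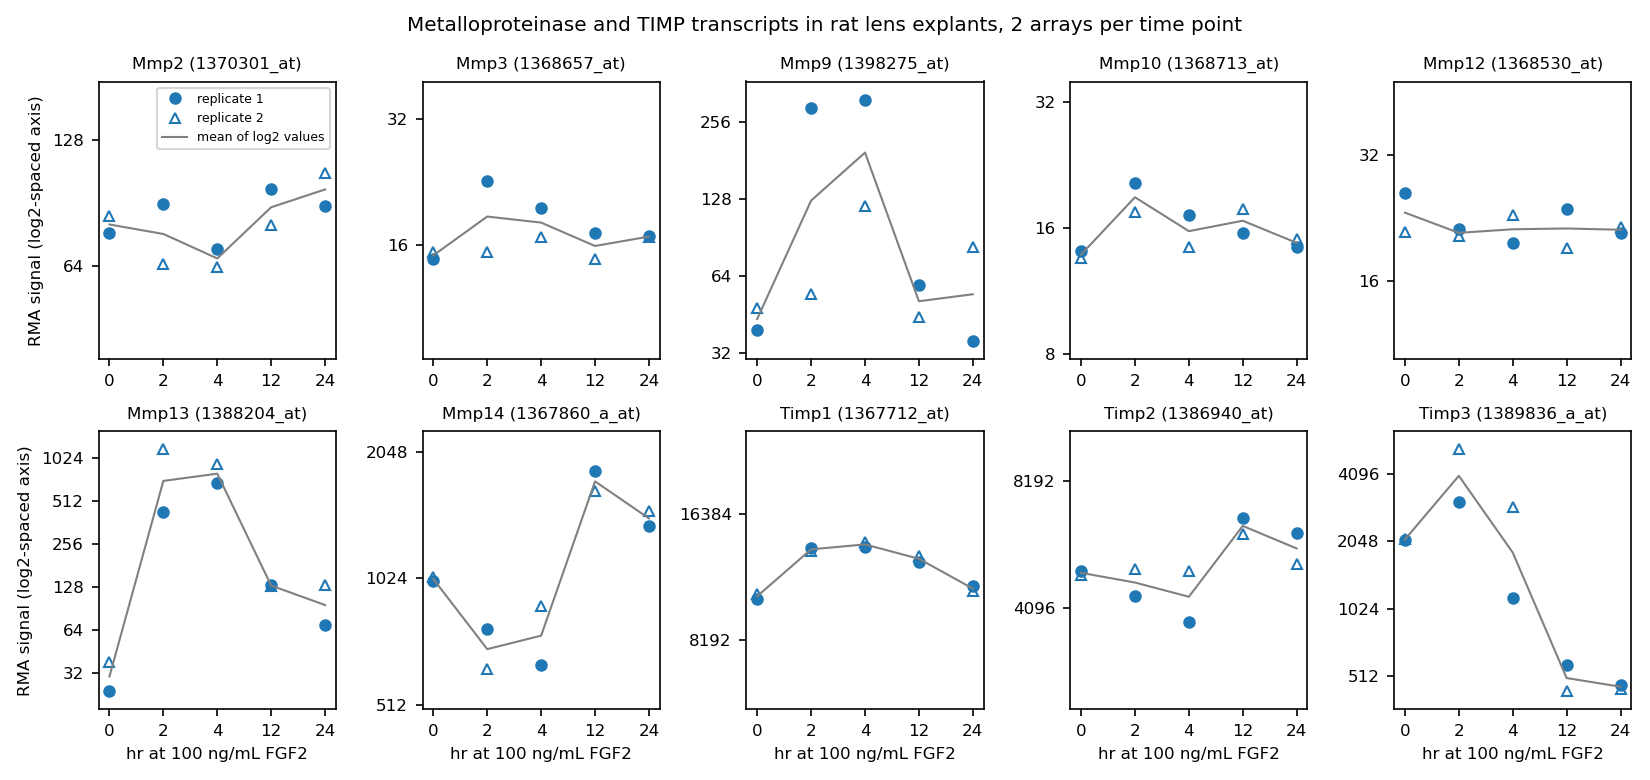
RMA signal (log2-spaced vertical axis) of the brightest probe set of each of the 10 genes against hours at 100 ng/mL FGF2 (time points evenly spaced, not to scale). Circles are replicate 1, triangles replicate 2, and lines join the means of the log2 values; the Mmp13 arrays rise from 23.9 and 38.2 to between 424 and 1167 at 2 and 4 hr, while those of Timp3 fall to between 439 and 572 at 12 and 24 hr.

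Mmp13 lies on rat chromosome 8 in a row of metalloproteinase genes, in the order Mmp13, Mmp12, Mmp1b, Mmp3, Mmp1, Mmp10, and Mmp8 in RefSeq (assembly GRCr8). Several promoters of this group are textbook examples of control by AP-1, the dimer of Fos and Jun family proteins. In the RefSeq promoter table, which gives 250 bases before to 50 bases after each start and holds 7 of the 10 genes (not Mmp2, Mmp9, and Mmp14), the motif TGANTCA was searched on both strands. It was present once in each promoter of the 4 members in this row (Mmp13, Mmp12, Mmp3, and Mmp10) and in none of those of Timp1, Timp2, and Timp3. Mmp1b, Mmp1, and Mmp8 are not members, and their promoters were not looked at singly. Of all 27457 promoters, 7.33% hold the motif. The 30 bases around each match are shown because these neighbours share the motif and yet differed in signal, with TGANTCA in capitals and all on the plus strand of GRCr8:
Mmp13 (first motif base at −66, chr8:12782752-12782781): accccaagtggTGACTCAtcactattgctc
Mmp12 (first motif base at −87, chr8:12866554-12866583): gacatcaacagTGAGTCAtattgaggattt
Mmp3 (first motif base at −71, chr8:12925199-12925228): ggaagcaattaTGAGTCAgtttgcgggtga
Mmp10 (first motif base at −61, chr8:12974635-12974664): tagcacccacaTGAGTCAtgcttagtgacc
A second motif, AGGAAG, the core bound by Ets factors of the PEA3 type, was also searched on both strands and does not overlap TGANTCA in these promoters. It starts at −95 in the Mmp13 promoter, at −206 in that of Mmp3, and at −230 and −94 in that of Timp1, and 34.3% of all promoters hold it. A match to a motif is a description of the sequence, and binding was not measured.

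The neighbours of Mmp13 that also carry the AP-1 motif had low signals that moved little. The mean signals of Mmp10, Mmp3, and Mmp12 lay at percentiles 9.6, 11, and 17.1 of all probe sets. At such low signals, little movement is not evidence that the transcripts did not respond. Mmp10, stromelysin 2, which cuts proteoglycans, laminin, and other proenzymes, read 14.1 and 13.6 at 0 hr, 20.5 and 17.5 at 2 hr, 17.2 and 14.4 at 4 hr, 15.6 and 17.8 at 12 hr, and 14.4 and 15.1 at 24 hr (1368713_at). All treated arrays lay above both 0 hr arrays, by a small margin. The log2 difference was 0.45 at 2 hr (standard error 0.12, adjusted p = 0.035) and between 0.09 and 0.27 at the other times, where it was not called. This call at 2 hr was lost without either 0 hr array, 2 hr replicate 1, or either 24 hr array (0.34 to 0.57, adjusted p up to 0.17). Mmp3, stromelysin 1, a close relative with a similar range of substrates, read 14.8 and 15.4 at 0 hr and between 14.8 and 22.7 on the treated arrays (1368657_at). Its highest value, 22.7, was on 2 hr replicate 1, next to 15.4 on 2 hr replicate 2. The differences of Mmp3 lay between 0.07 and 0.31, with 95% confidence intervals from −0.08 to 0.70 at 2 hr and from −0.24 to 0.54 at 24 hr, and none was called. Mmp12, macrophage elastase, read 26.0 and 20.9 at 0 hr and between 19.2 and 23.8 on the treated arrays (1368530_at), so the groups overlapped at every time. Its differences lay between −0.16 and −0.13 (standard error 0.14), and none was called.

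The AP-1 and Ets factors themselves changed mostly upward at the early times. Of 19 genes of these families, all measured, 12 were up-regulated and 1 down-regulated at 2 hr, 11 and 1 at 4 hr, 6 and 1 at 12 hr, and 5 and 3 at 24 hr. Their median log2 difference was 0.72, 0.85, 0.20, and 0.22 at these times. Of all probe sets, the share called up was 8.61, 11.9, 8.94, and 9.29% at the 4 times, and the share called down was 8.88, 11.9, 10, and 10.9%. Fosl1, which encodes the AP-1 subunit Fra-1, had log2 differences of 2.42, 2.44, 0.82, and 0.22 at 2, 4, 12, and 24 hr (standard error 0.25), of which the early ones were called (adjusted p = 0.00055 and 0.00028). At its brighter probe set Fos, an immediate early subunit of AP-1, rose by 1.74 and 1.12 at 2 and 4 hr (standard error 0.18) and stood at −0.02 and −0.15 late. The dimmer probe set of Fos was not called at any time, at −0.0055, −0.005, 0.11, and 0.06. Junb rose at all 4 times, by 2.08, 1.91, 0.80, and 0.73. Jun rose by 0.88, 0.85, 0.88, and 0.94 at its brightest probe set (standard error 0.14). Its other 2 probe sets were not called against 0 hr at any time, at −0.25, −0.13, 0.40, and 0.63 and at −0.17, 0.04, 0.66, and 0.59. The Ets factor Ets1 rose by 1.79 and 1.40 and fell at 24 hr, at −0.58 (standard error 0.13, adjusted p = 0.016), and Ets2 rose at 2 hr, by 2.03. At its brighter probe set the PEA3 factor Etv4 was up-regulated at all 4 times, more so in the late phase, with 1.26, 2.25, 3.51, and 3.14 (standard error 0.31; late minus early 1.57, adjusted p = 0.00057). Late minus early, 8 of the 19 genes were called lower, as Mmp13 was, among them Fosl1 (−1.91, adjusted p = 6.8e-05 from limma). Etv4, Etv5 (1.19), and Elk3 (0.85) were the 3 called higher. Of all probe sets, 19.3% were called lower and 19.9% higher in this contrast. For Jun the late minus early difference was 0.05 at its brightest probe set (standard error 0.10) and 0.71 and 0.69 at the others (adjusted p = 0.027 and 0.010). All of these are differences from the same 0 hr arrays.

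**Figure D2:**
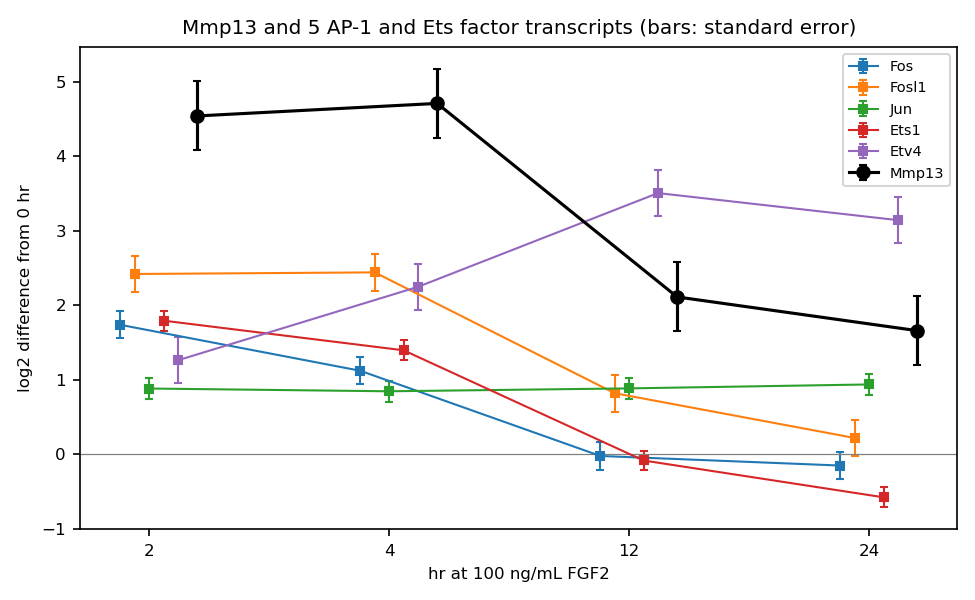
Log2 difference from 0 hr (vertical axis) of Mmp13, Fos, Fosl1, Jun, Ets1, and Etv4 at 2, 4, 12, and 24 hr of 100 ng/mL FGF2 (evenly spaced time points), with bars for the standard error from limma (n = 2 arrays per time point). Mmp13 is highest at 2 and 4 hr, at 4.54 and 4.71, where Fosl1, Fos, and Ets1 are also raised, and Etv4 exceeds it at 12 and 24 hr, at 3.51 and 3.14.

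The gelatinases, which cut denatured collagen and the type IV collagen of basement membranes, did not pass the test against 0 hr. Mmp9, gelatinase B, had 2 probe sets that moved together (Pearson's r = 0.986 over the 10 arrays, a description). At the brighter one (1398275_at) it read 39.5 and 48.1 at 0 hr, 292 and 54.8 at 2 hr, 314 and 121 at 4 hr, 59.2 and 44.2 at 12 hr, and 35.7 and 83.1 at 24 hr. The 4 early arrays lay above both 0 hr arrays, but replicate 1 was 5.33-fold higher than replicate 2 at 2 hr and 2.60-fold higher at 4 hr. The log2 difference was 1.54 at 2 hr (standard error 0.74, 95% confidence interval from −0.15 to 3.22, adjusted p = 0.20) and 2.16 at 4 hr (0.47 to 3.85, adjusted p = 0.067), then 0.23 and 0.32 late. Without replicate 1 of 2 and 4 hr, left out after seeing the data, the differences were 0.33 at 2 hr and 1.47 at 4 hr, the latter called (adjusted p = 0.044) with the spread taken from the other time points alone. The dimmer probe set (1369166_at) read 28.0 and 33.3 at 0 hr, 101 and 35.3 at 2 hr, and 93.1 and 49.0 at 4 hr, with differences of 0.97 and 1.14 that were not called either. As a direct contrast Mmp9 was lower late than early at the brighter probe set (−1.57, standard error 0.52, n = 4 arrays a phase, adjusted p = 0.042) and missed the threshold at the other (−0.91, adjusted p = 0.059). That call was lost without any one of 7 arrays (both at 0 hr, both at 12 hr, replicate 1 at 2, 4, and 24 hr), with values from −2.18 to −0.97 and adjusted p up to 0.13.

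Mmp9 is made in quantity by macrophages and neutrophils, so their markers were read beside it. Of 12 macrophage and microglia markers, 11 were higher on 2 hr replicate 1 than on replicate 2, and 8 had their highest value of the 10 arrays there. At 4 hr 8 of the 12 were higher on replicate 1, fewer than the 9 at 0 hr, and at 12 and at 24 hr 5 were. Their summed signal was 542 to 673 at 0 hr, 557 to 885 at 2 hr, 674 to 717 at 4 hr, 690 to 763 at 12 hr, and 714 to 728 at 24 hr, and none of the 12 was called at any time. The 3 neutrophil markers measured, of 4 listed, had a summed signal of 38.1 to 45.4 on the 10 arrays, and none was called. The part of these cells in the Mmp9 signal was not tested.

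**Figure D3:**
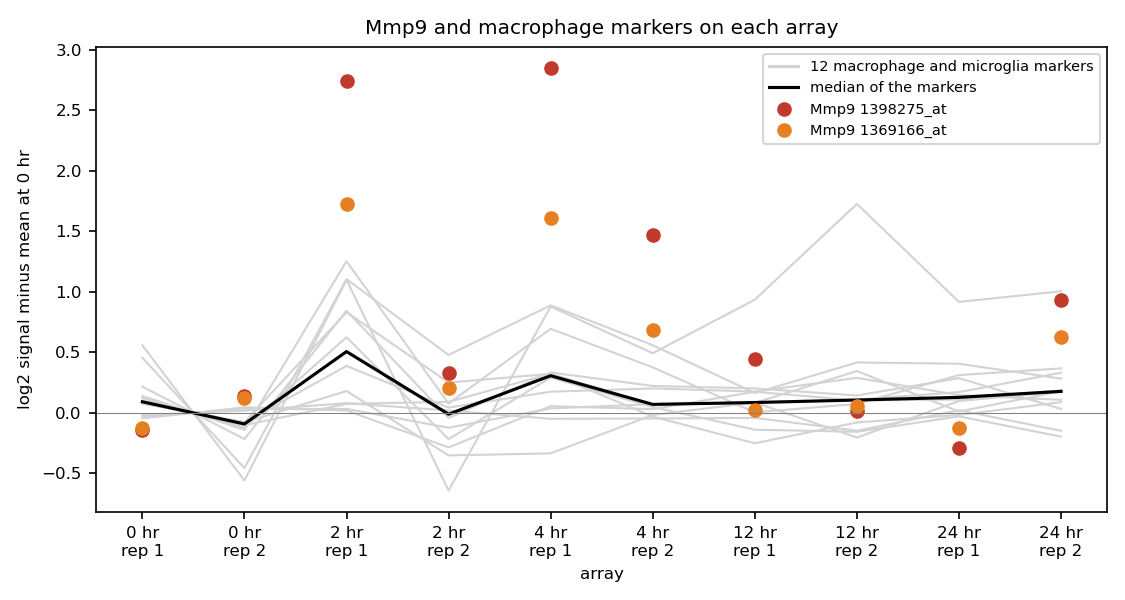
Log2 signal minus the mean at 0 hr (vertical axis) on each of the 10 arrays for both probe sets of Mmp9 (points), for 12 macrophage and microglia markers (grey lines), and for the median of these markers (black line). Mmp9 is highest on replicate 1 of 2 and 4 hr, and 8 of the 12 markers have their highest value on 2 hr replicate 1.

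Mmp2, gelatinase A, varied little. Its brighter probe set (1370301_at) read 76.6 and 84.2 at 0 hr, 89.9 and 64.6 at 2 hr, 70.0 and 63.4 at 4 hr, 97.3 and 80.0 at 12 hr, and 89.1 and 106 at 24 hr, so the replicates at 2 hr lay on both sides of those at 0 hr. The log2 difference ran from −0.27 at 4 hr to 0.28 at 24 hr (standard error 0.17, 95% confidence intervals from −0.66 to 0.12 and from −0.11 to 0.67), and none was called. Late minus early it was 0.38 (standard error 0.12, adjusted p = 0.035), a call lost without any one of 6 arrays (both at 0 hr, 2 hr and 4 hr replicate 2, 12 hr replicate 1, 24 hr replicate 2; 0.26 to 0.50, adjusted p up to 0.13). At its dimmer probe set (1369825_at), with 25.8 to 38.6 over all arrays, the late minus early difference was 0.19 (adjusted p = 0.17).

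Mmp14, the membrane-bound MT1-MMP that cuts collagens at the cell surface and activates the proenzyme of MMP2, was lower in the early and higher in the late phase, whereas Mmp13 declined between them. At its brighter probe set (1367860_a_at) it read 1009 and 1032 at 0 hr, 774 and 622 at 2 hr, 636 and 879 at 4 hr, 1842 and 1650 at 12 hr, and 1363 and 1485 at 24 hr. The 4 early arrays lay below both 0 hr arrays and the 4 late arrays lay above them, with no overlap. The log2 difference was −0.56 at 2 hr (standard error 0.16, adjusted p = 0.047), −0.45 at 4 hr (adjusted p = 0.080), 0.77 at 12 hr (adjusted p = 0.011), and 0.48 at 24 hr (adjusted p = 0.071). Late minus early, Mmp14 was higher by 1.13 (2.19-fold, standard error 0.11, n = 4 arrays a phase, adjusted p = 0.00011), and this held whichever array was left out (1.01 to 1.25). The fall at 2 hr passed the test only narrowly. It was lost without any one of 7 arrays (both at 0, 12, and 24 hr, and 2 hr replicate 2; adjusted p up to 0.20), as well as after quantile normalization and in a fit of only the 2 and 0 hr arrays. The rise at 12 hr was lost without either 0 hr array or 12 hr replicate 1 (0.69 to 0.85, adjusted p up to 0.085).

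The dimmer probe set of Mmp14 (1378225_at) was called for the late rise alone. It read 133 and 123 at 0 hr, 92.5 and 112 at 2 hr, 137 and 116 at 4 hr, 196 and 167 at 12 hr, and 175 and 160.2 at 24 hr. Late arrays lay above all the others, the 2 hr arrays lay below both 0 hr arrays, and the 4 hr arrays overlapped those at 0 hr. Its difference at 2 hr was −0.33 (adjusted p = 0.13) and at 4 hr −0.02. It was 0.50 at 12 hr (standard error 0.13, adjusted p = 0.031, lost without either 0 hr or either 12 hr array, adjusted p up to 0.20) and 0.62 late minus early (adjusted p = 0.00097).

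Timp3, which encodes the matrix-bound inhibitor of metalloproteinases and of several ADAM proteases, was strongly down-regulated in the late phase at all 4 of its probe sets. At the brightest (1389836_a_at) it read 2072 and 2096 at 0 hr, 3057 and 5259 at 2 hr, 1145 and 2897 at 4 hr, 572 and 439 at 12 hr, and 467 and 449.9 at 24 hr. The 4 late arrays lay below all the others, at each of the 4 probe sets. Its log2 difference was −2.06 at 12 hr, 4.16-fold lower (standard error 0.39, adjusted p = 0.0069 from limma, n = 2 arrays at each time), and −2.19 at 24 hr, 4.55-fold lower (adjusted p = 0.0051). At 1375138_at the signal went from 2225 and 2302 at 0 hr to 378 and 419 at 24 hr, with differences of −2.48 and −2.51 at 12 and 24 hr (standard error 0.43). At 1372926_at it went from 205 and 179.8 to 37.0 and 34.4, with −2.25 and −2.43 (standard error 0.45). The dimmest, 1368989_at, went from 91.1 and 91.3 to 42.6 and 38.5 and had smaller differences, −0.97 and −1.17 (standard error 0.14, adjusted p = 0.0020 and 0.00080). All 4 calls at 24 hr held whichever array was left out. At 12 hr the call of 1389836_a_at was lost without 12 hr replicate 2 (adjusted p = 0.061) and that of 1372926_at without 0 hr replicate 1 or 12 hr replicate 2 (adjusted p up to 0.072).

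The early values of Timp3 were less clear. Both 2 hr arrays were above both 0 hr arrays at each of the 4 probe sets, and the log2 difference at 2 hr was between 0.53 and 0.94. It was called at 1368989_at alone (0.53, adjusted p = 0.035), and this call was lost without either 0 hr array, 2 hr replicate 2, or either 12 hr array (0.34 to 0.71, adjusted p up to 0.15). At 4 hr the differences were −0.19, −0.59, 0.33, and −0.13, with none called, and at the brightest probe set replicate 1 (1145) lay below and replicate 2 (2897) above both 0 hr arrays. The 4 against 2 hr log2 differences were −1.14, −1.28, −0.50, and −0.66 in the same order, and both 4 hr arrays lay below both 2 hr arrays except at 1372926_at. Again the call was made at 1368989_at alone (adjusted p = 0.042). Without any one of 8 arrays (all but 2 hr replicate 1 and 4 hr replicate 2) that call was lost (−0.85 to −0.47, adjusted p up to 0.16). Replicate 2 was above replicate 1 at 2 and 4 hr at every probe set. On the Actb controls, the 5' to 3' signal ratio is a sign of RNA and amplification quality. On the log2 scale it was −1.12 and −1.21 at 0 hr, −1.30 and −1.43 at 12 hr, and −1.75 and −1.88 at 24 hr. All treated arrays lay below both 0 hr arrays. On replicate 1 of 2 and 4 hr the ratio was −1.68 and −1.37, and on replicate 2 it was −2.13 and −2.08. The lens fiber markers also differed between these replicates, with a summed signal of 11910 on replicate 1 and 16472 on replicate 2 at 2 hr, and of 12704 and 18025 at 4 hr. At 0 hr it was 17333 to 17851, at 12 hr 10256 to 13409, and at 24 hr 14733 to 17948. Of these 7 markers 1, 3, and 4 were down-regulated at 2, 4, and 12 hr, none was at 24 hr, and none was up-regulated at any time. Crygs, which encodes gamma S-crystallin, was higher on replicate 2 of both early times and lower late than early (log2 difference −2.69, adjusted p = 0.00017), with −1.76 at 12 hr as its called difference from 0 hr (1.39, 1.14, and −1.09 at 2, 4, and 24 hr were not called). Crygs was the 1 fiber marker called lower late than early, and 2 of the 7 were called higher. These were Crybb1, by 1.07 (adjusted p = 0.013 from limma), and Bfsp1, by 0.37 (adjusted p = 0.012). The part of RNA quality and of fiber cells in the course of Timp3 was not tested. Late minus early, the 4 probe sets differed by −2.50, −2.54, −2.92, and −1.27 (adjusted p = 0.00018, 0.00025, 0.00016, and 3.3e-05).

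**Figure D4:**
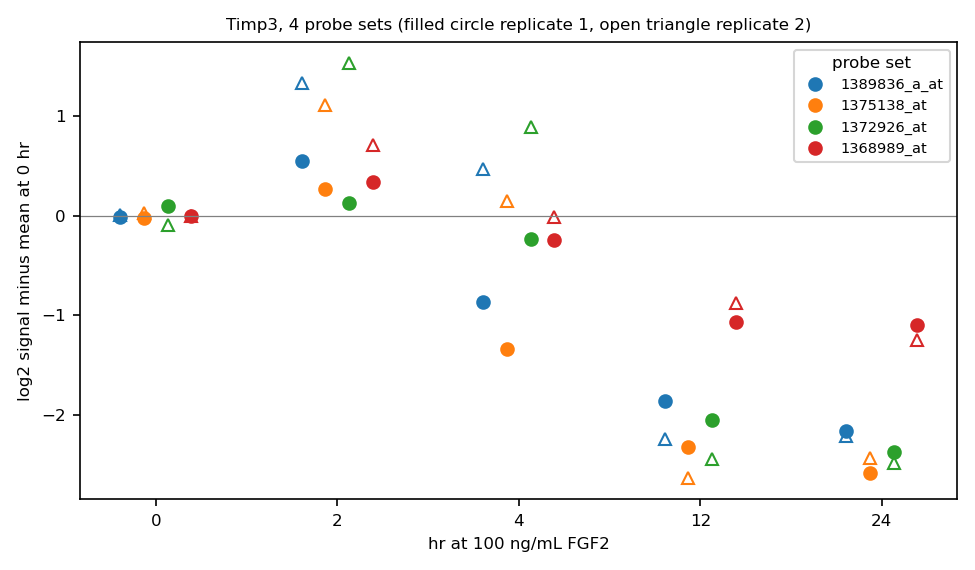
Log2 signal of the 4 probe sets of Timp3 minus their own mean at 0 hr (vertical axis) against hours at 100 ng/mL FGF2 (evenly spaced), circles for replicate 1 and triangles for replicate 2. All 4 lie below 0 hr on every 12 and 24 hr array, 1368989_at by less than the others, and the replicates part at 2 and 4 hr.

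Markers of endothelium and of fibroblasts and pericytes, cells that also make TIMP3, were read on the same arrays. Of 7 endothelial markers 6 were measured, and 1, 3, 3, and 4 of them were down-regulated at 2, 4, 12, and 24 hr. Kdr, a receptor of vascular endothelial growth factor, went the other way, up-regulated at 12 hr by 1.21 (adjusted p = 0.045) and higher late than early by 1.05 (adjusted p = 0.010). Their summed signal was 1489 to 1879 at 0 hr, 1698 to 1828 at 2 hr, 1255 to 1422 at 4 hr, 1052 to 1149 at 12 hr, and 885 to 977 at 24 hr. It includes Tek, the receptor of angiopoietins, with 806 and 1053 at 0 hr and 335 and 285 at 24 hr, whereas Pecam1, a defining endothelial gene, read 17.2 to 29.9 on the 10 arrays. The 8 fibroblast and pericyte markers had a summed signal of 11694 to 11941 at 0 hr, 11731 to 12860 at 2 hr, 11381 to 13487 at 4 hr, 11981 to 12829 at 12 hr, and 9134 to 11017 at 24 hr, most of it from Pdgfra, which read 7793 to 10903 on the 10 arrays. None of them was called at 12 or 24 hr, 1 rose at 4 hr, and 4 were lower late than early, among them the collagen gene Col3a1 (−0.79, adjusted p = 0.017; −0.63 and −0.70 at 12 and 24 hr) and the pericyte gene Rgs5 (−0.69, adjusted p = 0.030; −0.58 and −0.67). The fibroblast and pericyte sum thus mostly follows Pdgfra and does not measure how many of these cells were present. Col1a1 read 58.6 to 100.6, Col3a1 36.5 to 89.8, and Col1a2 974 to 2150 on the 10 arrays. Whether the Pdgfra signal came from these cells or from the lens cells was not tested. The part of endothelial cells, fibroblasts, and pericytes in the fall of Timp3 was not tested either.

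Timp1 and Timp2 had smaller differences from 0 hr, between −0.19 and 0.61 on the log2 scale. Timp1, a secreted inhibitor that can be induced by growth factors, read 10304 and 10581 at 0 hr, 13602 and 13417 at 2 hr, 13677 and 14082 at 4 hr, 12606 and 13052 at 12 hr, and 11031 and 10751 at 24 hr (1367712_at). All treated arrays lay above both 0 hr arrays, those of 24 hr by little. Its difference was 0.37 at 2 hr (1.29-fold, standard error 0.08, adjusted p = 0.013), 0.41 at 4 hr (adjusted p = 0.0059), and 0.30 at 12 hr (adjusted p = 0.030), and at 24 hr it was 0.06 (95% confidence interval from −0.12 to 0.24). Late minus early it was −0.21 (adjusted p = 0.015, lost without 12 hr replicate 1). The calls against 0 hr depended on the 0 hr arrays: without 0 hr replicate 1 none of the 3 was made, without 0 hr replicate 2 those at 2 and 12 hr were lost, and the one at 12 hr was also lost without either 12 hr array (adjusted p up to 0.10, 0.052, and 0.17 at 2, 4, and 12 hr).

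Timp2, which both inhibits metalloproteinases and, with MT1-MMP, helps to activate the proenzyme of MMP2, gave somewhat different values at its 2 probe sets. The brighter (1386940_at) read 5021 and 4900.0 at 0 hr, 4371 and 5061 at 2 hr, 3779 and 5007 at 4 hr, 6701 and 6147 at 12 hr, and 6165 and 5214 at 24 hr. No difference from 0 hr was called there (−0.08, −0.19, 0.37, and 0.19, standard error 0.15), while late minus early it was 0.42 (adjusted p = 0.013, lost without 12 hr replicate 1). The dimmer (1367823_at) read 108 and 128 at 0 hr, 147 and 135 at 2 hr, 139 and 138.5 at 4 hr, 182 and 178 at 12 hr, and 168 and 143 at 24 hr. It was up-regulated at 12 hr, by 0.61 (standard error 0.11, adjusted p = 0.0065), and at 24 hr, by 0.40 (adjusted p = 0.041), and was higher late than early by 0.26 (adjusted p = 0.033). The 12 hr call was lost without 0 hr or 12 hr replicate 1 (adjusted p up to 0.062), the 24 hr call without 0 hr replicate 1, either 12 hr array, or 24 hr replicate 1 (adjusted p up to 0.27), and the late minus early call without any one of 6 arrays (2 hr replicate 2, both at 4 and 12 hr, 24 hr replicate 1; adjusted p up to 0.11). Over the arrays the 2 probe sets correlated with r = 0.62, against 0.82 for the pair of Mmp14 and 0.957 to 0.994 for those of Timp3, all from the same arrays and therefore not independent.

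Counted over the 17 probe sets, 4 rose and 1 fell at 2 hr, which is 29.4% of them, while 17.5% of all 31042 probe sets were called at that time. The 4 hr count was 2 up and none down (11.8%, against 23.8% of all). The 12 hr count was 5 up and 4 down (52.9%, against 19%), and the 24 hr count 2 up and 4 down (35.3%, against 20.2%). The 4 falls at both late times are the 4 probe sets of Timp3, which share a transcript. From 2 to 4 hr 1 fell (5.88%, against 3.73% of all, of which 2.24% up and 1.5% down). From 12 to 24 hr none was called by limma, with 1 at an unadjusted p under 0.05, against 4.34% of all (2.22% up and 2.12% down). In the late against the early phase, 5 were higher and 7 lower (70.6%, against 39.2% of all, of which 19.9% higher and 19.3% lower). At any of the 4 times 10 of the 17 were called, standing for 6 genes, and 40.8% of all probe sets were called. Mmp2, Mmp3, Mmp9, and Mmp12 were called at none. With 1 probe set per gene, the median log2 difference of the 10 genes was 0.34, 0.03, 0.25, and 0.17 at 2, 4, 12, and 24 hr, where the median over all probe sets lay between −0.02 and 0.03.

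**Figure D5:**
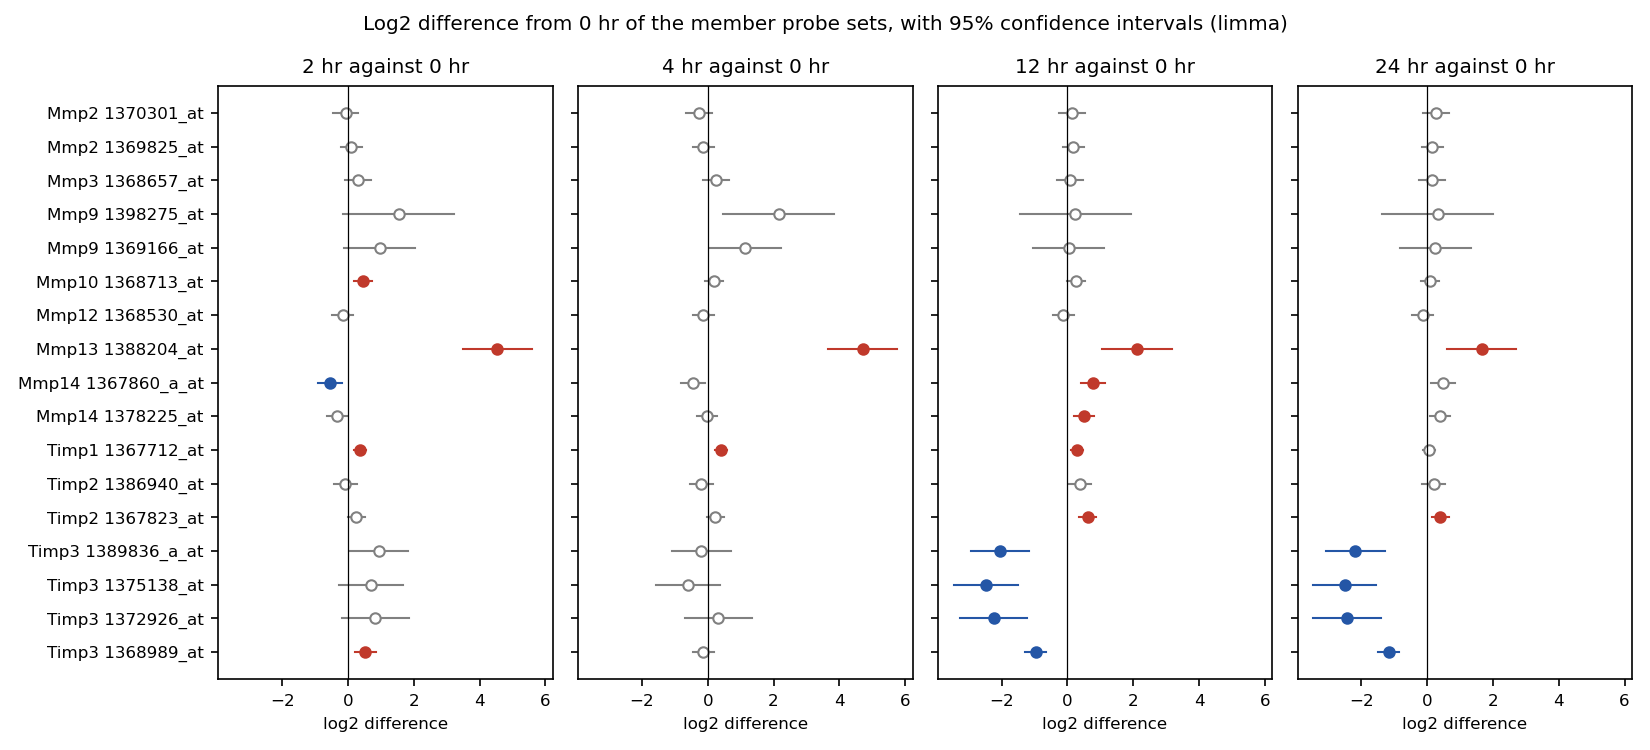
Log2 difference from 0 hr of the 17 probe sets at 2, 4, 12, and 24 hr (1 panel each), with 95% confidence intervals from limma (n = 2 arrays per time point). Filled red points were called up-regulated, filled blue points down-regulated, and open points were not called; Mmp13 stands furthest to the right at 2 and 4 hr and the 4 probe sets of Timp3 furthest to the left at 12 and 24 hr.

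Enzyme and inhibitor transcripts were set beside each other within each array, as the change of Mmp13 from its 0 hr mean minus that of Timp3 (1389836_a_at), a quantity chosen after the values were seen and given with no test. It was 3.26 and 3.94 at 2 hr, 5.35 and 4.45 at 4 hr, 3.98 and 4.36 at 12 hr, and 3.36 and 4.33 at 24 hr on the log2 scale. On every treated array Mmp13 had thus gained on Timp3 relative to 0 hr. At 2 and 4 hr the change of Mmp13 itself made up most of it, at 3.81 to 5.27, and at 12 and 24 hr the changes of Mmp13, 1.20 to 2.12, and of Timp3, −2.25 to −1.86, both entered. The same quantity for Mmp14 and Timp3 was −0.95 and −2.05 at 2 hr, 0.18 and −0.69 at 4 hr, and 2.58 to 2.94 on the 4 late arrays. These are differences of changes and not ratios of the amounts of enzyme and inhibitor.

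The genes most like these members were named by Pearson's r of the log2 values over the 10 arrays, which fall in 5 pairs of replicates, for the 3 members with the largest differences. For Mmp13 they were Fam110a (r = 0.985), Rela, which encodes the p65 subunit of NF-kappa B (r = 0.979), and Ess2 (r = 0.977). Their changes were smaller, with 0.72 and 0.63 for Rela at 2 and 4 hr. For Timp3 (1375138_at) they were Mamdc2 (r = 0.992), the tropomyosin gene Tpm1 (r = 0.992), and Ndufa1, a subunit of respiratory complex I (r = 0.990). Mamdc2 stood at −2.14 and −1.96 and Tpm1 at −1.63 and −1.54 at 12 and 24 hr, while Ndufa1 stood at −0.24 and −0.21. For Mmp9 they were Rprml (r = 0.970), the RNA export factor Alyref (r = 0.952), and Pla1a (r = 0.944), whose differences at 4 hr were 0.42, 0.24, and 0.37.

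Of the other matrix metalloproteinases, 10 of 17 genes listed were measured, each by its brightest probe set. None was called at 2 hr and 2 were down-regulated at 4 hr, followed by 1 up and 3 down at 12 hr and 1 up and 2 down at 24 hr. Mmp11, stromelysin 3, read 322 and 376 at 0 hr, 144 and 159.8 at 4 hr, and 174 and 156 at 12 hr, and it fell by 1.19, 1.08, and 0.71 at 4, 12, and 24 hr on the log2 scale (standard error 0.16, adjusted p = 0.00092, 0.0019, and 0.013). Mmp15, the membrane-type enzyme MT2-MMP, fell by 1.01 and 1.21 at 4 and 12 hr (standard error 0.23) and stood at −0.29 at 24 hr. Mmp16, or MT3-MMP, fell at 12 and 24 hr, at −0.79 and −0.71, and Mmp24, or MT5-MMP, rose at 24 hr, by 0.44. The membrane-type enzymes thus went different ways late, with Mmp14 above and Mmp16 below 0 hr at 12 hr.

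Other inhibitors and cofactors, 12 of 14 measured, had 2 rises and 1 fall at 2 hr, 4 and 1 at 4 hr, and no rise with 1 and 2 falls at 12 and 24 hr. A2m, the protease trap alpha-2-macroglobulin, read 112 and 119.6 at 0 hr and 349 and 389 at 2 hr, a rise of 1.67, followed by 1.35 at 4 hr (standard error 0.21, adjusted p = 0.0013 and 0.0020) and by 0.26 and −0.17 late. Tfpi2, a matrix-bound inhibitor of plasmin and other serine proteases, rose by 1.52 and 1.76 and fell at 24 hr, at −0.73 (standard error 0.21, adjusted p = 0.040). Cd44, a hyaluronan receptor that can hold MMP9 at the cell surface, rose at 4 hr, by 1.31, as did Reck, a membrane-anchored inhibitor of metalloproteinases, by 0.45 (adjusted p = 0.047).

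In the plasminogen activator system, 7 of 9 genes were measured, with 1 rise and 1 fall at 2 hr, 3 rises at 4 hr, and 1 rise at each late time. Plaur, the urokinase receptor, read 83.5 and 75.0 at 0 hr, 578 and 714 at 2 hr, 407 and 386 at 4 hr, 106 and 104.6 at 12 hr, and 68.2 and 91.5 at 24 hr. It rose by 3.02 and 2.32 at 2 and 4 hr (standard error 0.15, adjusted p = 2.5e-05 and 3.7e-05), and at 24 hr its difference was 0.00. Plau, urokinase itself, rose at 4 hr at its brighter probe set, by 0.91 (standard error 0.19, adjusted p = 0.0087), where no other time was called. Its dimmer probe set was called up at 2 hr (0.29, adjusted p = 0.046 from limma) and 24 hr (0.32, adjusted p = 0.029). At 4 hr the dimmer one was not called (0.20). Plat, tissue plasminogen activator, fell at 2 hr, at −0.33, and rose by 0.70 and 0.86 at 4 and 12 hr (standard error 0.10), and it was higher at 4 than at 2 hr by 1.03 (adjusted p = 0.0013). Serpine2, a matrix inhibitor of thrombin and urokinase, rose at 24 hr, by 1.71 (standard error 0.20, adjusted p = 0.00074). Among 14 proprotein convertases and other activators, the early times had 2 rises each, with 1 fall at 2 hr and 2 at 4 hr; none was called at 12 hr, and 24 hr had 1 rise and 1 fall. Furin, which cuts the prodomain of MT1-MMP, rose by 0.48 and 0.60 at 2 and 4 hr (standard error 0.10), and Pcsk7 by 0.49 and 0.62.

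The ADAM and ADAMTS proteases, several of which TIMP3 inhibits, moved both ways, with 21 of 27 measured. They had 1 rise and 2 falls at 2 hr, 2 and 2 at 4 hr, 4 and 1 at 12 hr, and 3 and 4 at 24 hr. Adamts1, an aggrecan- and versican-cutting enzyme, read 72.8 and 78.2 at 0 hr and 234 and 293 at 24 hr and rose by 1.36, 1.17, and 1.79 at 2, 12, and 24 hr (standard error 0.22). Adam23, which lacks protease activity, fell at 2 hr, at −1.11, and rose at 24 hr, by 1.92 (standard error 0.27). Adam10, the sheddase of Notch and cadherins, fell at 24 hr, at −1.88 (standard error 0.29, adjusted p = 0.0027). Adamts15 rose at 12 hr alone, by 1.76. Of 25 basement membrane and matrix genes that these enzymes cut, 24 were measured, with 2 rises and 1 fall at 2 hr, 2 and 2 at 4 hr, 3 and 2 at 12 hr, and 2 and 5 at 24 hr. Nid2, a linker of laminin and collagen IV, rose by 1.16, 2.43, and 2.13 at 4, 12, and 24 hr (standard error 0.25). Tnc, tenascin C, rose at 12 hr, by 2.68 (standard error 0.62, adjusted p = 0.017), and Col18a1, the source of endostatin, at 24 hr, by 1.35. Lama1, a laminin chain of the lens capsule, was down-regulated at both early times, with −0.61 and −0.85 (standard error 0.15), and stood at −0.20 and −0.07 late.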

How the data were processed

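Lens explant RNA was amplified from 50 ng and hybridized to Affymetrix arrays, 2 for each of 5 time points. The authors normalized the arrays by RMA and deposited the intensity values on a linear scale; the version and annotation are not given in the sources used here, and the array type in the methods text differs from the one in the array names of the supplementary data, which was not resolved here. These values were taken to log2 without further normalization, and 57 array controls were left out. Symbols came from the platform annotation, with 20826 probe sets carrying 1 symbol, 436 several, and 9780 none; the Entrez IDs of the 10 members gave the same symbols in RefSeq. A linear model with a mean for each time point was fitted to the 10 arrays (limma 3.58.1, R 4.3.3; 5 residual degrees of freedom), with variances shrunk by eBayes to a prior SD of 0.116 on 3.69 degrees of freedom. P-values were adjusted by Benjamini-Hochberg over 31042 probe sets, and the fit was tested on simulated data. The number of arrays limits the precision.

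The members and the gene lists were chosen with earlier results of these data known. Named are all members, Plau, Plaur, Fos, Fosl1, Jun, Ets1, and Etv4, and some of the list genes called at any time. These are not always the largest changes of a list. Atf3 (3.01 at 2 hr) and Col4a4 (−0.91 at 12 hr), for example, were called and are not described. For 3 members, the 3 genes of highest r are also named. Marker genes are named as examples. List genes are given by their brightest probe set, and others of the same gene can differ (the fall of Adam23 at 2 hr and that of Adam10 at 24 hr were not called at theirs). Alternatives were unadjusted p, a fit limited to the time points compared, the methods' analysis of variance, a trended and robust prior, median centring, quantile normalization, array weights, a filter that drops the dimmest 1 in 3 probe sets, a replicate block, the mean of all probe sets of a gene, and each array left out in turn. Plots were made in matplotlib 3.10.9 (Python 3.11.15). The miRNA measurements were not analysed here.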

Additional observations from a re-analysis of the deposited data

Results flagged for a closer look

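At 1 probe set each, Mmp14 and Timp3 were called against 0 hr in opposite directions at 2 hr and in the late phase. The other probe sets of both genes were not called at 2 hr. At 4 hr the flagged probe sets stood at −0.45 (Mmp14) and −0.13 (Timp3), neither of them called. Mmp14 (1367860_a_at) fell at 2 hr and rose at 12 hr, and its late arrays stood above its early ones by 1.13 on the log2 scale. Timp3 (1368989_at) rose at 2 hr and fell at 12 and 24 hr, and late against early it stood at −1.27. The early call of each was lost when 0 hr replicate 1 or 0 hr replicate 2 was left out. The call of each in the late against early contrast held whichever array was left out. That contrast leaves out the 0 hr arrays, so it does not test whether the directions from 0 hr were opposite. Both probe sets were flagged by this same difference, so its test is no separate evidence for the flag. The phases were measured on arrays that are numbered apart, so that numbering and the phase cannot be told apart.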

How the results depend on the processing

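With 2 arrays per time point, the counts depended on single arrays. Leaving out each array in turn gave 1 to 6 called probe sets of the 17 at 2 hr (5 with all arrays), 1 to 5 at 4 hr (2), 3 to 9 at 12 hr (9), 4 to 7 at 24 hr (6), 0 to 3 for 4 against 2 hr (1), 0 to 0 for 24 against 12 hr (0), and 7 to 12 late against early (12). Unadjusted p called 5 at 4 hr, 4 for 4 against 2 hr, and 1 for 24 against 12 hr. A fit limited to the time points compared called 1 at 2 hr and 0 for 4 against 2 hr. The methods' analysis of variance called 2 at 2 hr, 0 for 4 against 2 hr, and 1 for 24 against 12 hr. Array weights called 0 for 4 against 2 hr, and the trended and robust prior 1 for 24 against 12 hr. Without both replicate 1 arrays of 2 and 4 hr, chosen after seeing the data, 4 were called at 4 hr (Mmp9 1.47 among them) and 3 for 4 against 2 hr, and all 4 probe sets of Timp3 were called up at 2 hr (1389836_a_at 1.34). This fit leaves 1 array at 2 and at 4 hr, assumed to vary like the 0, 12, and 24 hr arrays, whose replicates differed less, so its calls carry no replicate check of the early times. The same assumption holds for a time left with 1 array by a single omission. Without all 4 arrays of 2 and 4 hr, also chosen after seeing the data, 10 were called at 12 hr and 8 at 24 hr. The cause was not tested.

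Equal replicate numbers correlated only between 2 and 4 hr (r = 0.33, the others −0.15 to −0.003), so they were not taken to pair the samples. The fit treats the 2 and 4 hr arrays as independent. Its standard errors for 4 against 2 hr and for late against early therefore do not take up this correlation. With a replicate block the 2 hr call of Mmp14 was lost (adjusted p = 0.065), as was the 24 hr call of Timp2 at 1367823_at, and no count moved by over 1.5 times.

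Directions that turned were those of differences that were not called. With each array left out in turn, Mmp2 ranged from −0.313 to 0.163 at 2 hr and from −0.0048 to 0.278 at 12 hr, Mmp3 from −0.0321 to 0.181 at 12 hr, Mmp9 from −0.288 to 0.930 at 24 hr, Mmp12 from −0.289 to 0.0256 at 4 hr, from −0.282 to 0.0319 at 12 hr (0.0286 without 12 hr replicate 2) and from −0.293 to 0.0217 at 24 hr, Timp2 from −0.182 to 0.0289 at 2 hr and from −0.392 to 0.0134 at 4 hr, and Timp3 from −0.864 to 0.475 at 4 hr. Without both replicate 1 arrays of 2 and 4 hr the upper values of Timp2 and Timp3 were also obtained. The mean of all probe sets turned Mmp2 at 2 hr (0.0133) and Timp2 at 2 and 4 hr (0.0903 and 0.022).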
